A study of Mus musculus with 18 samples.

Results

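mRNA of whole lung was measured on 6 arrays at E17.5, of the 18 arrays in the series, to ask which genes differ when the INSIG brake on SREBP is removed from the lung epithelium. The 3 deleted arrays, KO22, KO23 and KO24, came from Insig1/2Δ/Δ mice, which carry SP-C-rtTA, (tetO)7CMV-Cre, Insig1 flox/flox and Insig2-/- and whose dams received doxycycline from E6.5 to E12.5. The 3 control arrays, C19, C20 and C21, came from Insig1 flox/flox/Insig2-/- littermates that lacked either SP-C-rtTA or (tetO)7CMV-Cre. Groups were taken from the labels, and the replicates are described as biological. All 6 lungs carried the Insig2-/- genotype. The groups differed by design in Insig1 in cells in which the SP-C promoter had been active, and also in the transgenes, since each control lacked rtTA or Cre and the deleted lungs had both. The effects of Insig1 loss and of the transgenes cannot be told apart from these groups. The Cre recombinase acts only in the epithelium and is incomplete in this transgenic system, and the other cells of the lung keep Insig1. In RNA of whole lung, fewer cells of a type and less RNA per cell cannot be told apart. One comparison near the end also uses 3 Scap deleted and 3 control arrays at E18.5. Those deleted lungs carried Scap flox/flox, SP-C-rtTA and (tetO)7CMV-Cre, with doxycycline to the dams from E6.5 to E12.5. Their controls were Scap flox/flox littermates that lacked either rtTA or Cre, in a colony of mixed strain background.

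INSIG1 and INSIG2 are membrane proteins of the endoplasmic reticulum that hold the SCAP-SREBP complex there when sterols are plentiful. When they let go, SCAP escorts the SREBP precursors to the Golgi, where proteases release the transcription factor, and SREBPs then switch on the enzymes that make cholesterol and unsaturated fatty acids. Alveolar type II cells of the lung epithelium draw on these lipids for surfactant, which is assembled in the last days before birth.

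All values below are log2 values per probe set, on which a difference of 1 is a 2-fold ratio, and differences are deleted minus control with the standard error from limma. Of 22775 probe sets that passed the filter on low values, 0 were called higher (0.0%) and 0 lower (0.0%) at an adjusted p under 0.05, and 0 (0.0%) passed the threshold of the methods. The lowest adjusted p was 0.732. At an unadjusted p under 0.05 limma gave 500 higher (2.2%) and 433 lower (1.9%), and the unmoderated Student test of the methods gave 688 and 429 and also called 0. All gene statements for this deletion are thus given as values that did not pass the adjustment. With 3 lungs per group an exact two-sided permutation test of one gene cannot give a p below 0.1.

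The 6 arrays also fell into another pattern that no label names. On the first principal component, which held 66.3% of the variance, C19, C20 and KO22 lay at -19.9, -22.4 and -25.8, and C21, KO23 and KO24 at 11.1, 26.9 and 30.1. These are called the first and the second set here, each holding arrays of both groups. The sets did not overlap in 9032 probe sets (39.7%), against 2287 for the groups. In a fit that held both group and set, the difference between sets was larger than that between groups in 68.6% of probe sets. Medians of the difference between sets below come from that fit. Each comparison below is therefore also given within the first set, as KO22 minus the mean of C19 and C20, and within the second, as the mean of KO23 and KO24 minus C21. These values rest on 3 arrays each. Of all probe sets, 5872 (25.8%) were above 0 within both sets, 5249 below 0 within both, and 11653 (51.2%) had opposite signs. With the set as a block the fit called 0 probe sets (0.0%), with 613 higher and 648 lower at an unadjusted p under 0.05 and a lowest adjusted p of 0.412, and since the sets were found in the same data that p does not allow for the choice.

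Single arrays stood apart in other respects. Xist, the transcript of the inactive X chromosome, was at 12.16 in C19, 11.83 in C21 and 12.38 in KO22, and between 5.74 and 5.86 in C20, KO23 and KO24, in which the Y-linked Eif2s3y was at 9.98, 9.79 and 9.95. The sexes, female to male, thus stood 2 to 1 in the controls and 1 to 2 in the deleted lungs. They likewise stood 2 to 1 in the first set and 1 to 2 in the second. Nppa, the atrial natriuretic peptide of heart muscle, was at 12.63 in C21 and between 6.70 and 7.74 in the other arrays. The mean of 21 heart muscle genes was 1.25 above the control mean in C21. In 14 of those 21 genes every array of the second set was above every array of the first (19.4% of all probe sets). Their median difference between the sets was 1.05, so heart transcripts followed the sets as well. Keratins of stratified epithelium were high in KO24 alone, with Krt4 at 11.06 against 6.52 to 6.98 elsewhere and Krt13 at 9.63 against 6.71 to 6.97. The part of sex, heart and stratified epithelium in the other results was not tested beyond the values without those arrays given with them.

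The targeted gene, Insig1 (chromosome 5, 28071412 to 28078662, GRCm38.p6), was lower in every deleted array. Its log2 values were 10.002, 9.29 and 9.44 in C19, C20 and C21 and 8.58, 8.28 and 8.21 in KO22, KO23 and KO24. The gap between the lowest control and the highest deleted array was 0.71, and the difference was -1.06 within the first set and -1.20 within the second. KO22 and the other deleted arrays thus lay on the same side, whichever set they belonged to. The probe set covers the whole transcript while loxP sites flank exon 1, so the part that signal from outside the deleted exon adds was not tested.

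The other parts of the SREBP switch differed little. Scap, the escort, was at 9.75, 9.73 and 9.71 in controls and 9.77, 9.80 and 9.59 in deleted arrays, a difference of -0.01 (SE 0.08) whose sign changed with the normalization. Srebf2, which encodes the factor that mainly drives cholesterol genes, differed by 0.09 (SE 0.11), and Mbtps1, which encodes a protease that cuts SREBP, by -0.12 (SE 0.12), and both overlapped between groups. Srebf1, which encodes the factor that mainly drives fatty acid genes, was at 9.77, 9.72 and 9.88 in controls and at 10.21, 10.32 and 9.86 in deleted arrays. KO22 and KO23 were above every control and KO24 was level with C21. The difference was 0.34 (SE 0.13, adjusted p = 0.758), at 0.47 within the first set and 0.21 within the second. Insig2, inactivated in all 6 lungs by exchange of exons 2 and 3 for a neo cassette, still gave signal above the array medians of 7.42 to 7.50. It ranged from 8.75 to 8.93 in controls and from 8.96 to 9.09 in deleted arrays, a difference of 0.17 (SE 0.08, adjusted p = 0.758). Its probe set therefore does not check the Insig2 genotype, and the part that exons outside the exchanged ones add was not tested. The Insig2 gap between the groups was only 0.03, and its difference was 0.28 within the first set and 0.05 within the second. Of the 8 genes of the sterol uptake and SREBP list that passed the filter, of 11, Insig2 was the 1 higher in every deleted array and Insig1 the 1 lower. The shares over all probe sets were 5.83% and 4.22%.

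Genes of cholesterol synthesis followed the deletion and not the sets. Of its 21 genes 18 passed the filter, and all 18 had a difference above 0, with a median of 0.66 against 0.014 over all probe sets. In 16 of the 18 every deleted array was above every control array, against 5.83% of all probe sets, and 15 of the 18 had an unadjusted p under 0.05 with the deleted arrays higher. The median was 0.52 within the first set and 0.77 within the second, where the medians over all probe sets were -0.008 and 0.025. Only Ebp, a sterol isomerase, separated the sets, being higher in the second, against 19.4% of all probe sets. A gene that separates the groups cannot separate the sets, so that count is no further evidence. The mean over the 18 genes stood 0.05, -0.06 and 0.01 from the control mean in C19, C20 and C21 and 0.44, 0.74 and 0.69 above it in KO22, KO23 and KO24. The lists were chosen with earlier results of these arrays known, and the counts are a description.

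**Figure D1:**
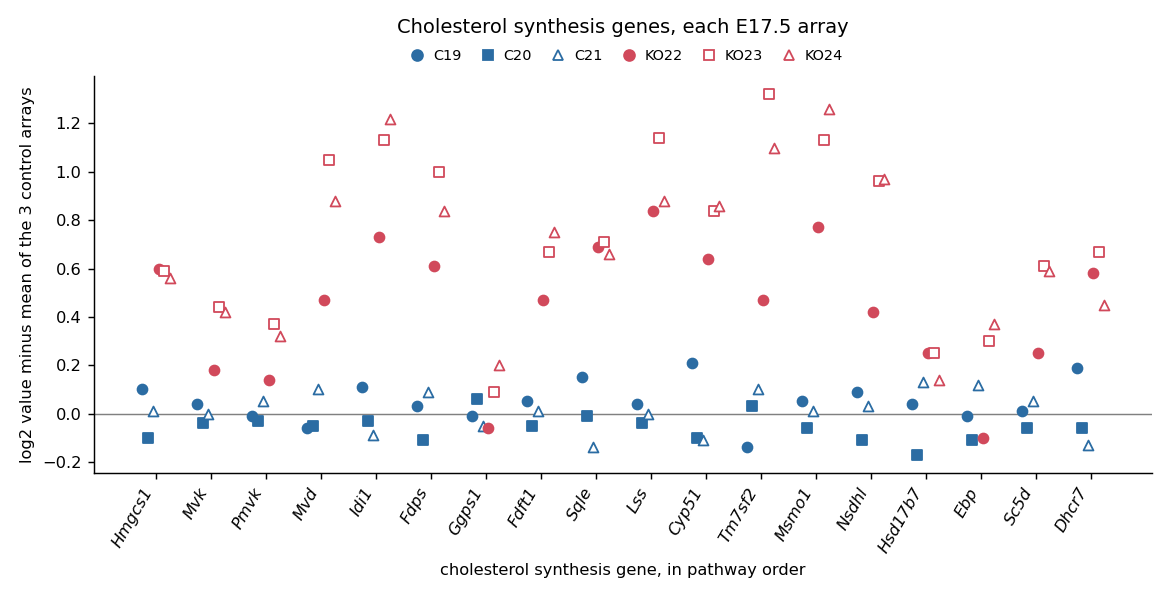
Each point is 1 array (blue, control; red, deleted; filled, first set C19, C20 and KO22; open, second set C21, KO23 and KO24), plotted as the log2 value of a gene minus the mean of the 3 control arrays, for 18 genes in the order of the pathway. The deleted arrays lie above all controls for 16 genes, with Ggps1 and Ebp as exceptions, and KO22 is the lowest deleted array for 14.

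The enzymes that turn acetyl units into isoprenoids come first in the pathway. Hmgcs1, the synthase that makes HMG-CoA, was at 10.78, 10.58 and 10.69 in controls and 11.28, 11.27 and 11.24 in deleted arrays. Its 3 deleted arrays differed by less than the controls did among themselves, and the difference of 0.58 (SE 0.07, adjusted p = 0.732) was 0.60 within the first set and 0.57 within the second. The mevalonate kinase Mvk differed by 0.35 and the phosphomevalonate kinase Pmvk by 0.28, with KO22 the lowest of the deleted arrays in each. The decarboxylase Mvd, which ends the mevalonate steps, differed by 0.80, at 0.52 within the first set and 0.87 within the second. Idi1, the isomerase that makes the active isoprene unit, was at 9.93, 9.79 and 9.73 in controls and 10.55, 10.95 and 11.04 in deleted arrays, 2.04-fold higher. The other probe set that bears its name gave a difference of 1.02 beside 1.03. Fdps, which joins isoprene units into farnesyl diphosphate, was 1.76-fold higher. Ggps1, whose product leaves the sterol branch for the prenylation of proteins, differed by 0.08 and overlapped, with KO22 below every control.

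The enzymes that commit carbon to sterols followed. Fdft1, squalene synthase, was 1.55-fold higher, with 11.16, 11.06 and 11.12 in controls against 11.58, 11.78 and 11.86. Sqle, which oxidises squalene, was at 10.17, 10.01 and 9.88 in controls and 10.71, 10.73 and 10.68 in deleted arrays, a difference of 0.69 (SE 0.09, adjusted p = 0.732). Lss, the cyclase that closes the ring to lanosterol, had the smallest unadjusted p of the list, 3.59e-05 from limma. Its controls were at 8.91, 8.83 and 8.87, a spread of 0.04 (SD), and its deleted arrays at 9.71, 10.01 and 9.75. The difference of 0.96 (SE 0.10, adjusted p = 0.732) was 0.84 within the first set and 1.01 within the second.

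The steps from lanosterol to cholesterol completed the group. Cyp51, the first demethylase, differed by 0.78, and Tm7sf2, a sterol reductase, by 0.97. Tm7sf2 was at 7.33, 7.50 and 7.57 in controls, 7.94 in KO22, and 8.79 and 8.57 in KO23 and KO24, so its difference was 0.52 within the first set and 1.12 within the second. Msmo1, the methylsterol oxidase, was at 9.90, 9.79 and 9.86 in controls and 10.62, 10.98 and 11.11 in deleted arrays, 2.07-fold higher. It had the largest difference of the list. Nsdhl, the decarboxylase that follows it, differed by 0.78, and Hsd17b7, the ketone reductase of the same cycle, by 0.21. Ebp differed by 0.19 and overlapped. Sc5d, a desaturase, differed by 0.48, and Dhcr7, which reduces the last double bond, by 0.57.

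Within the second set the difference was larger than within the first for 16 of the 18 genes, against 53.7% of all probe sets. Compared within the sexes read from Xist, the median was 0.47 among C19, C21 and KO22, with 16 of 18 genes above 0, and 0.73 among C20, KO23 and KO24, with 18 of 18. In 14 further settings of 1 choice each, listed in the closing section, only Ggps1 changed sign, at -0.01 without both C21 and KO24. Among these settings the Student test and the fit of all 18 arrays leave a difference as it is, so they could not change a sign.

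The sequence before the start of each gene is shown for 4 of these enzymes, 1 at each stage of the pathway, because SREBPs act there together with the factor NF-Y, whose site is known as the CCAAT box. The windows are the 250 bases before the start in RefSeq, 5′ to 3′ on the strand of the gene, from GRCm38.p6. They lie at chr13:119690101-119690350 on the plus strand for Hmgcs1, chr13:8885356-8885605 on the plus strand for Idi1, chr10:76531355-76531604 on the plus strand for Lss, and chr8:64733579-64733828 on the minus strand for Msmo1. Of the 4, the Lss window is not wholly before the start. It runs past the RefSeq gene start at 76531565, and its last bases lie within the gene. Capitals mark CCAAT on either strand (ATTGG when read on the other), and TCACNCCAC, a form of the sterol regulatory element, on either strand.
Hmgcs1: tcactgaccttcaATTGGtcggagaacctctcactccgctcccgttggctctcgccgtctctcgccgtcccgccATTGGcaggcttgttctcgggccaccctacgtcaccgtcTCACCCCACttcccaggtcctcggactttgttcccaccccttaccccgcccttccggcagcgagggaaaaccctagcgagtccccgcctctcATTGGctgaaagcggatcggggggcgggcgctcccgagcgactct
Idi1: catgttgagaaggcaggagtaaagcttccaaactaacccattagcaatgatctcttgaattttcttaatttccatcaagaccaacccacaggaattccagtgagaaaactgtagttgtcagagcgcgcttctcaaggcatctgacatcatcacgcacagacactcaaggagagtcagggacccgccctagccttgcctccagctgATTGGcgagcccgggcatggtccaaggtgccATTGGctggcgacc
Lss: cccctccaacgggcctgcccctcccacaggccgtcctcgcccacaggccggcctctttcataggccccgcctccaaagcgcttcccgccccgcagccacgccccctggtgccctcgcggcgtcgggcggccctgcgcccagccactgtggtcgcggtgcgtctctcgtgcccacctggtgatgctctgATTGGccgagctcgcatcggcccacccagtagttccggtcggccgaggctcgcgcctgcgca
Msmo1: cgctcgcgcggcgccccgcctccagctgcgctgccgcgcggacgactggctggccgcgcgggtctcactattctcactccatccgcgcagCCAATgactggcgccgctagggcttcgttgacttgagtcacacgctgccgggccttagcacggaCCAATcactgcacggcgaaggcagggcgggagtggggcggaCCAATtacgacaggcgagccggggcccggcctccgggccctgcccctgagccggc
The window of Hmgcs1 held 3 CCAAT and 1 TCACNCCAC, and those of Idi1, Lss and Msmo1 held 2, 1 and 3 CCAAT and no TCACNCCAC. Of the 18 measured cholesterol genes 15 had a window in the table used here, and all 15 held CCAAT in at least 1 window, against 37.5% of 27025 genes. TCACNCCAC was in 1 of the 15, against 1.22% of all genes. A match is a description of the letters and not a site, and no match says only that these letters were not in the window.

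Fatty acid synthesis, the other arm of SREBP, was divided between the deletion and the sets. Of 20 genes measured, 17 had a difference above 0 with a median of 0.11, at 0.13 within the first set and 0.11 within the second. In 6 of the 20 every deleted array was above every control, against 5.83% of all probe sets, and in 7 others every array of the second set was above every array of the first, against 19.4%. The 6 were Aacs, which feeds acetoacetate into lipid synthesis (0.38), the desaturases Fads1 (0.34) and Fads2 (0.25), Mid1ip1 and Thrsp, which act on acetyl-CoA carboxylase (0.30 each), and the citrate carrier Slc25a1 (0.19). The gap between the groups was only 0.01 for Mid1ip1, and for Thrsp C21 and KO22 both rounded to 6.81. For Fads1 the values were 11.22, 11.28 and 11.38 in controls and 11.56, 11.71 and 11.61 in deleted arrays, with 0.31 within the first set and 0.28 within the second.

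Scd1, the desaturase that makes monounsaturated fatty acids, showed both patterns at once. Its values were 11.45, 11.15 and 12.51 in C19, C20 and C21 and 12.30, 12.93 and 12.87 in KO22, KO23 and KO24. Within each set the deleted arrays were above the controls, by 1.0 in the first and 0.39 in the second, yet C21 was above KO22 and the groups overlapped. The difference was 0.99 (SE 0.37, adjusted p = 0.758), and by sex it was 0.32 among C19, C21 and KO22 and 1.75 among C20, KO23 and KO24. Acss2, which makes acetyl-CoA from acetate, followed the sets, with 9.50, 9.52 and 9.65 in the first and 9.99, 10.42 and 10.20 in the second. Fasn, the synthase of palmitate, had opposite signs in the sets. It was at 11.61, 11.58 and 11.39 in controls and 12.05, 11.48 and 11.06 in deleted arrays, so KO22 was the highest of the 6 and KO24 the lowest, and the difference of 0.00 (SE 0.24) was 0.46 within the first set and -0.12 within the second. Scd2 differed by 0.08 (SE 0.07).

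The genes that held their direction in both sets were then narrowed by size. Among probe sets whose groups did not overlap, 53 (0.233%) were higher and 13 (0.0571%) lower by 0.3 or more within each set. Counting each named gene once by its brightest probe set left 29 genes, 24 higher and 5 lower, and 12 of the 24 were the cholesterol enzymes above, with Aacs beside them. The threshold of 0.3 was met narrowly by Fcgr3, a receptor for antibodies (0.31 within the first set), Cd40, a receptor of immune cells (0.31), and Rtp3 (0.31), and in the cholesterol list it was missed by, among others, Sc5d (0.28 within the first set) and Hsd17b7 (0.07 within the second).

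**Figure D2:**
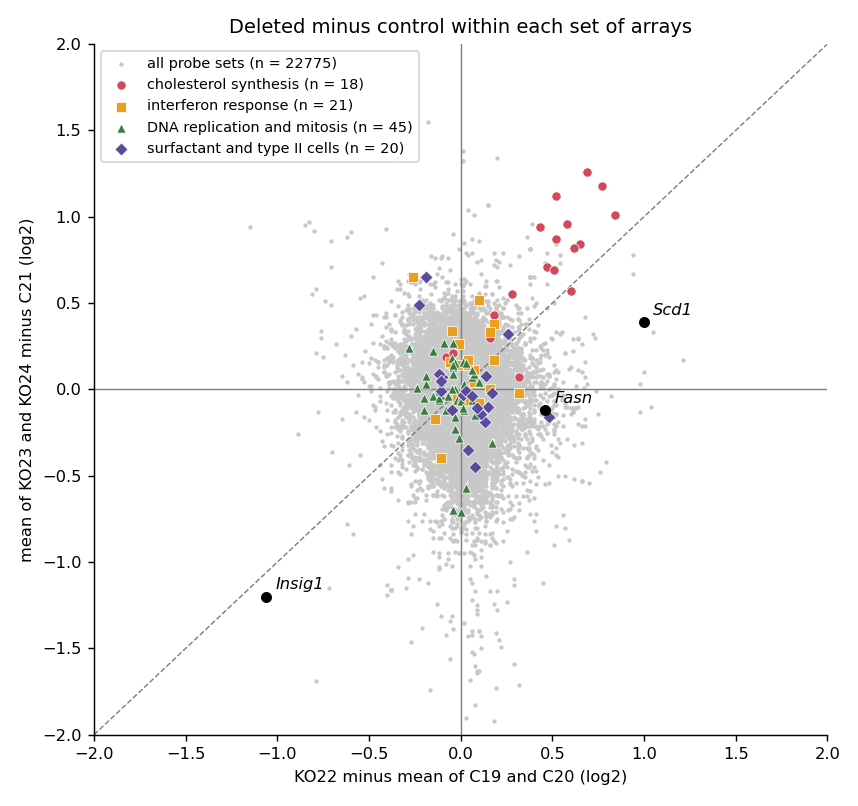
Each point is 1 probe set, with KO22 minus the mean of C19 and C20 on the x axis and the mean of KO23 and KO24 minus C21 on the y axis, both in log2 units; the dashed line marks equal differences, and 5 probe sets lie outside the axes. The cholesterol genes lie mostly in the upper right, Insig1 in the lower left, and the interferon, DNA replication and surfactant genes near 0 on the x axis or on either side of it.

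Of the genes higher in both sets and outside lipid synthesis, the cytokine gene Il18 had the largest difference, 0.84 (SE 0.23, adjusted p = 0.758). It was at 7.67, 7.998 and 8.04 in controls and 8.23, 8.97 and 9.04 in deleted arrays. KO22 was above the controls by less than KO23 and KO24 were, with 0.39 within the first set and 0.96 within the second. Mfsd2a, a carrier that takes lysophosphatidylcholine into cells, was at 6.88, 6.79 and 6.94 in controls and 7.20, 7.81 and 7.82 in deleted arrays, a difference of 0.74 (SE 0.17). Fgfbp1, which encodes a carrier of fibroblast growth factors, was as even as the enzymes. It was at 8.21, 8.08 and 8.09 in controls and 8.68, 8.80 and 8.86 in deleted arrays, a difference of 0.65 (SE 0.08, adjusted p = 0.732), with 0.54 and 0.73 within the sets. Pcyt2, a control step of phosphatidylethanolamine synthesis, differed by 0.40, Rasgrp2 by 0.38 and Crnde by 0.34.

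The 5 genes lower in both sets were Insig1, Atxn1, Pgm3, Hykk and Mamdc2. Atxn1, which encodes the chromatin factor ataxin-1, was at 11.04, 10.91 and 10.92 in controls and 10.59, 10.46 and 10.21 in deleted arrays, a difference of -0.54 (SE 0.11, adjusted p = 0.758). Pgm3, an enzyme of the pathway that makes UDP-N-acetylglucosamine, was at 9.64, 9.62 and 9.42 in controls and 9.25, 9.02 and 8.94 in deleted arrays, a difference of -0.49 (SE 0.11). C21 was the lowest control for Pgm3 and KO24 the lowest deleted array. Hykk, the kinase of hydroxylysine, differed by -0.39 (SE 0.07) and Mamdc2 by -0.28 (SE 0.11).

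Other lists near lipid synthesis came next. Of 19 genes of phosphatidylcholine synthesis and remodelling, 3 were above and 2 below in every deleted array, and 8 were higher in the second set, where the shares over all probe sets were 5.83%, 4.22% and 19.4%. Their median difference was 0.08, at -0.02 within the first set and 0.06 within the second. Pcyt1a, whose product sets the rate of phosphatidylcholine synthesis, was at 9.82, 9.79 and 9.84 in controls and 9.65, 9.76 and 9.58 in deleted arrays, a difference of -0.15 (SE 0.07). The methyltransferase Pemt (0.17), the acyltransferase Lpcat3 (0.16) and Lpin3 (0.08) were the 3 above. Of 10 LXR targets and genes of cholesterol export, 0 were above in every deleted array and 8 were higher in the second set. Those 8 could not separate the groups, so that 0 is a description only. Npc1, which moves cholesterol out of lysosomes, was the 1 below, by -0.29, nearly all of it within the second set (-0.53 against -0.02). Of 23 PPAR targets and genes of lipid storage, Angptl4 (0.24) and Dgat1 (0.15) were above, Hadha (-0.04) was below, and 15 were higher in the second set.

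Surfactant and type II cell genes followed the sets and not the deletion. Of 20 measured, 14 were higher in every array of the second set than in every array of the first, against 19.4% of all probe sets, with a median difference between the sets of 0.52. In 0 of the 20 did the groups separate, against 5.83% higher and 4.22% lower of all probe sets. A gene that separates the sets cannot separate the groups, so that 0 is no further evidence. The median deleted minus control difference was 0.05 within the first set and -0.02 within the second. Sftpd, a collectin of surfactant, was at 9.62, 9.35 and 9.52 in C19, C20 and KO22 and 10.77, 10.78 and 10.74 in C21, KO23 and KO24. Sftpb, the surfactant protein needed to spread the film, was at 12.56, 12.27 and 12.56 in the first set and 12.99, 12.99 and 12.79 in the second. Both genes were named after their values were seen. Markers of type II cells were present in every array, and Sftpc, the gene whose promoter drives rtTA here, was between 13.28 and 13.37 in all 6.

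Interferon response genes showed the same division. Of 21 measured, 15 were higher in the second set, against 19.4% of all probe sets, and so could not separate the groups. Of the 21, 0 separated the groups, against 5.83% higher and 4.22% lower of all probe sets. The median difference of 0.20 over both sets became 0.04 within the first and 0.14 within the second. Oasl2, an antiviral gene, was at 7.35, 7.57 and 7.79 in C19, C20 and KO22 and 9.19, 9.46 and 8.89 in C21, KO23 and KO24. Genes of DNA replication and mitosis went the other way, with 34 of 45 lower in the second set against 20.3% of all probe sets. Their difference was below 0 in 39 of 45 with a median of -0.15, but the median was -0.04 within the first set and -0.01 within the second. Mki67, a marker of dividing cells, was at 11.53, 11.39 and 11.46 in the first set, 10.72 in C21, and 9.94 and 10.07 in KO23 and KO24. Oasl2 and Mki67 were chosen after their values were seen.

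**Figure D3:**
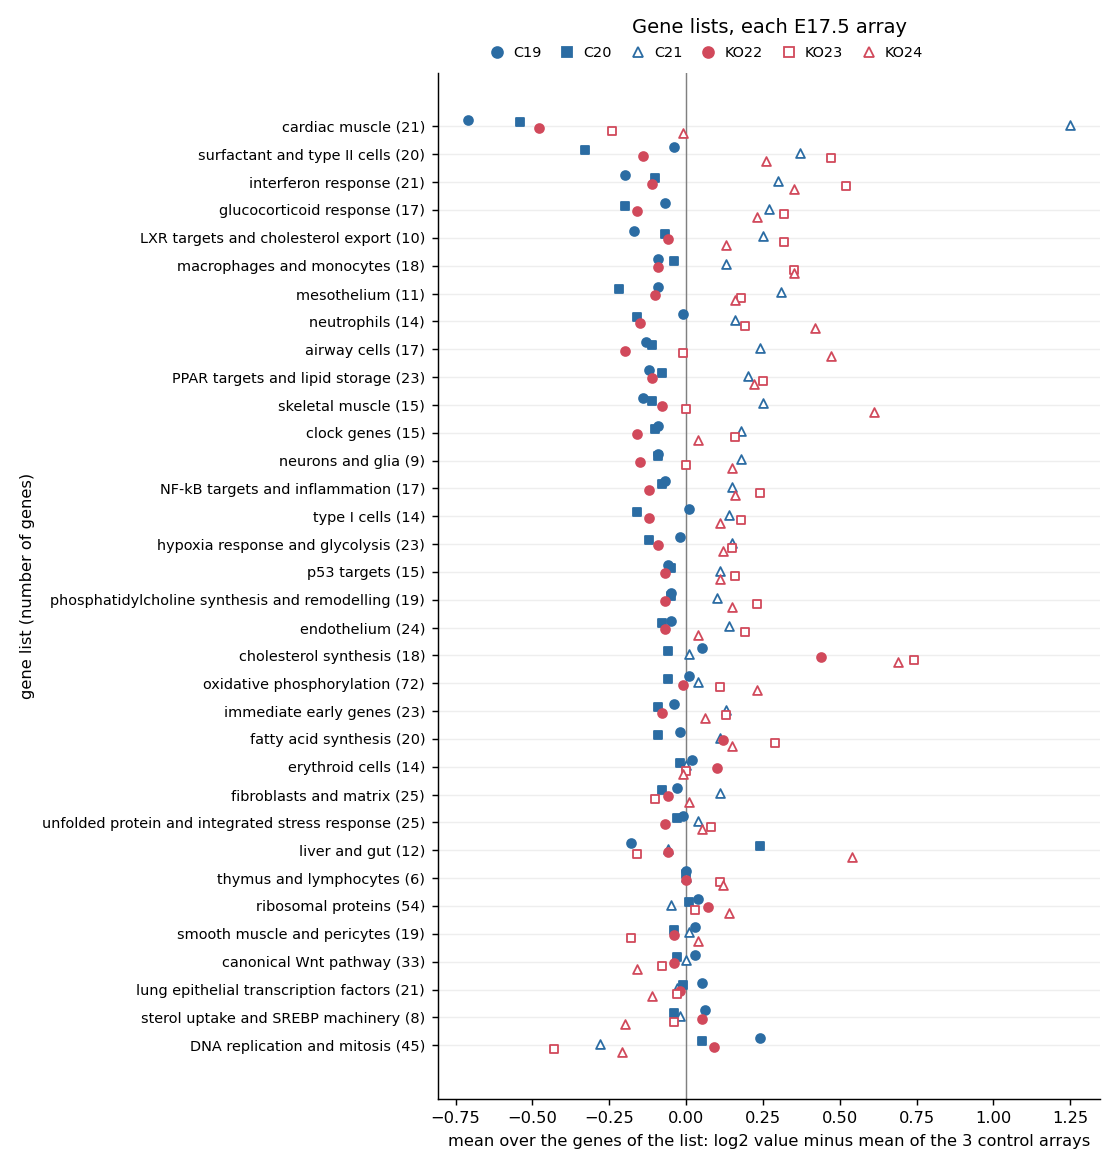
Each row is a gene list with its number of measured genes, ordered by the median difference between the sets, and each point is 1 array (colours and fills as for the cholesterol genes), plotted as the mean over the list of the log2 value minus the mean of the 3 control arrays. Open points lie to the right of filled ones for most lists in the upper part, while for cholesterol synthesis the 3 red points lie at 0.44, 0.74 and 0.69, to the right of all blue ones.

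Other cell types gave few genes that separated the groups. Of 18 macrophage and monocyte genes, 17 had a difference above 0 with a median of 0.24, but the median was -0.04 within the first set and 0.19 within the second, and 11 were higher in the second set. Cd14, the co-receptor for endotoxin, was at 7.14, 7.29 and 7.24 in controls and 7.44, 7.59 and 7.59 in deleted arrays, and Mrc1, the mannose receptor, differed by -0.15. Of 17 airway genes, 11 had a difference above 0 and 6 below, with a median of 0.07, at -0.11 within the first set and 0.06 within the second, and 10 were higher in the second set. Those 10 could not separate the groups. In 0 of the 17 was every deleted array above every control, and in 3 of ciliated cells every deleted array was below, namely Dnah5 (-0.40), Dnah9 (-0.37) and Rsph1 (-0.15). Other genes of ciliated cells overlapped between the groups, with Foxj1 at -0.03 and Tekt1 at 0.07. Dnah5 was at 7.73, 7.71 and 7.70 in controls, 7.60 in KO22, and 7.14 and 7.20 in KO23 and KO24, so most of its difference lay within the second set. Of 24 endothelial genes, Kdr, the main receptor for VEGF, differed by -0.29 and Egfl7 by 0.27. Of 19 smooth muscle and pericyte genes, Myocd, a coactivator of smooth muscle genes, was lower by -0.41 (SE 0.11), at -0.16 within the first set and -0.56 within the second, and Hhip (-0.23) and Pdgfrb (-0.23) were lower in every deleted array as well. Of 25 fibroblast and matrix genes, Col6a1 (-0.27) and Col6a2 (-0.20) were. Over all probe sets 1327 (5.83%) were higher in every deleted array and 960 (4.22%) lower. The airway and smooth muscle lists each held 3 of the lower kind.

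Of 54 ribosomal protein genes, 12 were above every control in every deleted array, against 5.83% of all probe sets, and 42 were above 0 within both sets, against 25.8%. Their median difference was 0.06, and of the 12 Rps21 (0.44), Rps13 (0.32), Rpl26 (0.24) and Rpl27 (0.16) had the largest differences. Of 72 genes of oxidative phosphorylation, 8 were above and 1 below (5.83% and 4.22% of all probe sets), and 34 were higher in the second set (19.4%). The median of 0.12 was 0.01 within the first set and 0.13 within the second. Among 25 genes of the responses to unfolded protein and amino acid shortage, Atf4 (0.23) and Creld2 (0.08) were above and Atf6 (-0.20) and Pdia4 (-0.13) among the 3 below. Of 33 Wnt genes Gsk3b (-0.29) was below and Wnt2 (0.17) above. Single genes of other lists were Foxp1 (-0.16), a lung transcription factor, and Klf1 (0.21), a factor of red cell precursors, while Ccl20, Cd8a, Myh2 and Gkn1 differed by 0.09 or less in size. DNA replication, p53 target, hypoxia, glucocorticoid, clock, immediate early, type I cell, neutrophil and mesothelial lists held 0 genes that separated the groups. Over all probe sets the shares were 5.83% higher and 4.22% lower. Members that separated the sets, such as 34 of 45 DNA replication genes, could not separate the groups. The 0 is thus a description only.

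The genes with the widest gap between the sets were described with no test, since the sets were defined on these arrays. Inmt, a methyltransferase of the mature lung, was at 7.86, 7.20 and 6.75 in C19, C20 and KO22 and 10.82, 10.81 and 10.57 in C21, KO23 and KO24. Car4, a carbonic anhydrase of lung capillaries, was at 9.50, 9.40 and 9.07 against 11.03, 11.59 and 11.50, and Lcn2, a secreted lipocalin, at 10.03, 9.66 and 9.85 against 11.28, 11.51 and 11.30. Gdpd2 and Rtp4 were higher in the second set as well. Lower in the second set were Fbn2, the fibrillin of fetal matrix, at 11.37, 11.30 and 11.31 against 9.91, 9.12 and 9.22, and the matrix genes Vcan, Frem2 and Thbs1, with Crh. For Fbn2, Vcan, Frem2, Thbs1, Crh, Car4, Rtp4 and Lcn2, C21 lay between the deleted arrays of its set and the first set. It did not for Inmt and Gdpd2. In control lungs of the Scap line at E18.5, which are of another line and a later age, the 3 arrays ranged from 11.52 to 12.37 for Inmt, from 11.39 to 11.62 for Car4 and from 8.78 to 9.37 for Fbn2. KO23 and KO24 lay within the E18.5 ranges for Car4, Fbn2, Frem2 and Thbs1. C21, the control of their set, lay outside these ranges on the side of the first set, at 11.03, 9.91, 9.17 and 11.03. All 6 arrays lay below the range of Inmt. They lay above the ranges of Vcan (8.83 to 9.20) and Crh (5.60 to 5.66) and below that of Lcn2 (11.52 to 11.85). For Gdpd2 KO23 lay above the range and C21 and KO24 within it, and for Rtp4 C21 and KO24 lay below it. The labels give the same age, E17.5, for all 6 lungs, and what sets the split was not tested.

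Last, the deletion was set against the opposite one, of Scap in the lung epithelium, at E18.5, the nearest age analysed. The mouse line with its Insig2-/- genotype, the deletion and the age differ together and cannot be told apart. The difference between the 2 effects was tested in 1 limma fit of 12 arrays, and 16 of 22783 probe sets were called higher with Insig1/2 deletion (0.0702%) and 1 lower (0.00439%), the latter Derl3, a component of protein degradation at the endoplasmic reticulum (-0.04 here and 0.81 with Scap deletion). Of the 16, 11 bear the names of 10 genes, and 8 of these genes are cholesterol enzymes of the 18 measured. They were Hmgcs1, Idi1, Fdps, Fdft1, Sqle, Lss, Cyp51 and Dhcr7, and the other two were Fads1 and Pcyt2. For Lss the effect was 0.96 with Insig1/2 deletion and -0.44 with Scap deletion, a difference of 1.40 (SE 0.15, adjusted p = 0.00946 from limma). For Idi1 the difference was 1.46 (SE 0.18, adjusted p = 0.0159 from limma), and for Hmgcs1 0.96 (SE 0.10, adjusted p = 0.00946 from limma). For each of these 10 genes every Insig1/2 deleted array was above every control, a rise that is itself part of the tested difference. Msmo1, with the largest difference here, was at -0.09 with Scap deletion and its difference did not pass (adjusted p = 0.115 from limma). Over the 18 genes the medians were 0.66 and -0.24. For Scd1 the effects were 0.99 and -2.68.

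**Figure D4:**
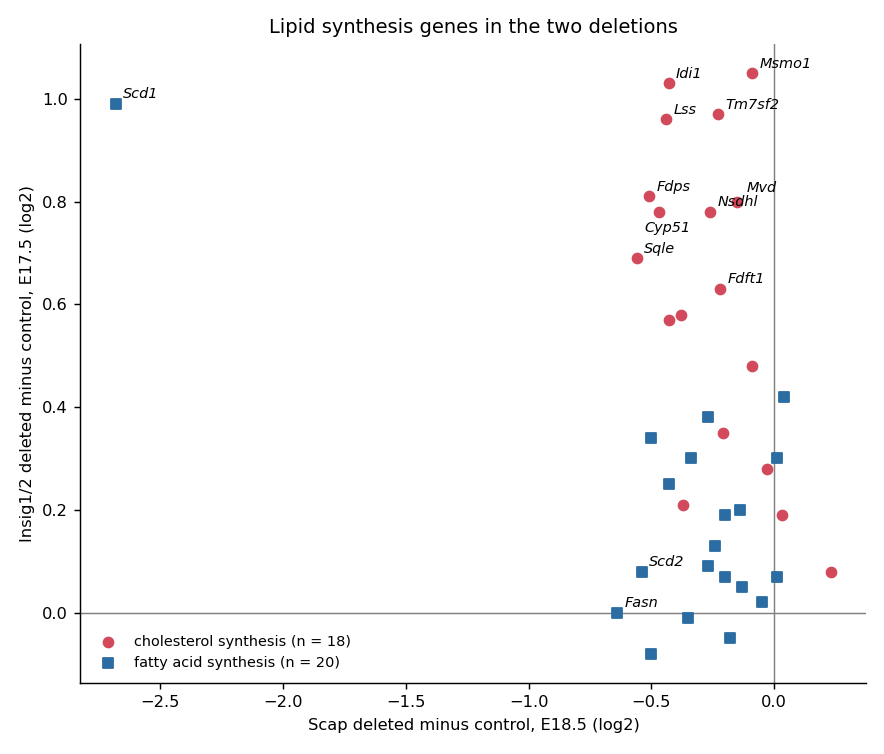
Each point is 1 gene, with the Scap deleted minus control difference at E18.5 on the x axis and the Insig1/2 deleted minus control difference at E17.5 on the y axis, both in log2 units, for the cholesterol (circles) and fatty acid (squares) lists. Most cholesterol genes lie above 0 on the y axis and below 0 on the x axis, and Scd1 lies farthest from the others at 0.99 and -2.68.

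These counts moved with single arrays. The fit called 0 probe sets without C20 of the Insig arrays or without C9 or KO11 of the Scap arrays, 100 without KO22, 62 without KO10, 6 to 11 without KO23, KO24, C7 or C8, and 10 when arrays were centred on their medians.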

How the data were processed

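RNA from whole lung had been hybridized by the authors to Affymetrix Mouse Gene 1.0 ST arrays. The authors deposited log2 expression values, 1 per probe set, and analysed them in GeneSpring; how probes were summarized and normalized is not given in the sources used here. The table covers 35556 probe sets, with array medians from 7.42 to 7.50 on these 6 arrays. Of them 21789 carry 1 gene symbol, 1621 several and 12146 none. Arrays have no depth, and their number limits the precision. Groups came from the labels.

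Kept were 22775 probe sets that reached the 35th percentile of an array on 66% or more of the 6 arrays. limma 3.58.1 in R 4.3.3 was fitted with 1 mean per group and with Benjamini-Hochberg adjustment over all of them. A call needs an adjusted p under 0.05, and the threshold of the methods is 0.01 with a ratio of at least 1.5. The fit was tested on simulated data. The 35 gene lists came from textbook knowledge, and a gene enters with its brightest probe set. Of 857 list entries 718 were measured. The arrays, lists and sets were chosen with earlier results of these data known. Named genes were Insig1, Insig2, Scap, Srebf1, Srebf2, Mbtps1, Scd1, Scd2, Fasn, Hmgcs1, Sqle and Lss, the 8 highest and 8 lowest that differed by 0.3 or more within both sets without overlap, up to 4 genes of each list whose groups did not overlap, and the 5 with the widest gap between the sets in each direction; the rest of the cholesterol list, Fads2, Slc25a1, Acss2, the other genes of the 29, and the genes marked so in the text were named after their values were seen. Some genes of the lists are not reported here. Figures were drawn with Python 3.11.15 and matplotlib 3.10.9.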

Additional observations from a re-analysis of the deposited data

How the results depend on the processing

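No paired analysis was possible because the deleted and control lungs share no replicate numbers in the labels. For deleted against control, 0 probe sets were called, also at the threshold of the methods, without a filter, with a 50th percentile filter, after quantile normalization or median centring, with a trend of the spread, with the Student test, in a fit of all 18 arrays, on gene means, with the set or (added after the values were seen) the sex as a block, without both C21 and KO24 (added likewise), and without each array in turn. Array weights, which gave KO22 0.204 and KO23 6.69, called 8366 probe sets (4194 higher, 4172 lower) and 8 at the threshold of the methods; the cause was not tested. At an unadjusted p under 0.05 the count of 933 became 6114 without KO22 and 383 with sex as a block. For the Insig1/2 effect minus the Scap effect, the 17 calls became 10 after median centring and ranged from 0 to 100 when 1 array was left out, and 16 to 20 under the filters and quantile normalization. Among the named genes and the settings tried, the sign changed only for Scap (0.01 after quantile normalization, 0.05 with array weights, 0.01 with the set and 0.01 with the sex as a block, 0.05 without both C21 and KO24, and from -0.04 to 0.06 without 1 array), Fasn (-0.02 after quantile normalization, -0.10 with array weights, and from -0.26 to 0.24 without 1 array), Inmt (-0.45 with the set as a block) and Ggps1 (-0.01 without both C21 and KO24). Insig1 ranged from -1.37 to -1.01, Lss from 0.86 to 1.13 and Msmo1 from 0.94 to 1.19. The Student test and the fit of all 18 arrays could not change the size or sign of a difference. List medians moved by less than the spread between arrays in 462 of 476 settings. With 3 arrays per group, 1 lung of the 6 can carry a difference, and the values within a set have no error of their own.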
